A study of Mus musculus with 4 samples.

Results

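The miR-200 family of the mouse is made of 5 microRNAs, mmu-miR-141, mmu-miR-200a, mmu-miR-200b, mmu-miR-200c and mmu-miR-429. They were taken by name from the 567 mouse microRNAs of the array, as the family defined by sequence. RNA of purified Sertoli cells, the somatic cells that nurse the germ cells in the seminiferous tubules, was measured on 4 Agilent 1-colour microRNA arrays. The mice were adult males of a mixed B6129 background, and the labels give pools of cells from 5 to 7 mice. Sham mice carried an empty implant and received saline (1 array). Flut+Acy mice were given flutamide, a blocker of the androgen receptor, in an implant, with injections of acyline, an antagonist of gonadotropin-releasing hormone that lowers testosterone production (2 arrays). Flut+Acy+T mice had both drugs and a testosterone implant (1 array). The labels number the Flut+Acy arrays as replicates without tying them to separate pools, and a legend of the study speaks of cells pooled for each group, so the pair may be repeats of 1 pool. Accordingly, the p-values below measure the spread between that pair of arrays, which may be technical. All arrays lay on 1 slide and were read in 1 scan.

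MicroRNAs of this family are known as markers of epithelial cells. They bind the messenger RNAs of Zeb1 and Zeb2, repressors of the cadherin gene Cdh1, and these repressors in turn hold down transcription of the family, a loop that separates epithelial from mesenchymal cells. A microRNA recognises its targets mainly through its seed, bases 2 to 8 from the 5′ end, so members with the same seed are expected to share many targets.

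The mature sequences (RefSeq, GRCm38.p6, matched for 5 of 5 members) are shown because the family splits in one way by seed and in another by locus. The seed is in capitals, and the first pair carries AACACUG and the other trio AAUACUG.
mmu-miR-141: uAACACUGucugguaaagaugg
mmu-miR-200a: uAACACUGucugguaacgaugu
mmu-miR-200b: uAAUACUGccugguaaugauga
mmu-miR-200c: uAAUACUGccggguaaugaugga
mmu-miR-429: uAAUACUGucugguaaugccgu

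Neither seed occurred in any other of the 1679 mature mouse microRNAs of the RefSeq table. Counted from 1 at the 5′ end, mmu-miR-141 and mmu-miR-200a differed at 2 of 22 bases (A17C and G22U), both outside the seed. mmu-miR-200b and mmu-miR-200c also differed at 2 of 22 bases (U11G and A22G). Across the seed groups, mmu-miR-200a and mmu-miR-200b differed at 4 of 22 bases, of which C4U was the only one in the seed.

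The loci cut across the seeds. In the mm9 coordinates of the array's probes, mmu-miR-429 (chr4:155428025-155428043), mmu-miR-200a (chr4:155429020-155429036) and mmu-miR-200b (chr4:155429794-155429810) lay within 1786 bases on chromosome 4. mmu-miR-141 (chr6:124667935-124667950) and mmu-miR-200c (chr6:124668342-124668356) lay within 422 bases on chromosome 6. RefSeq places each cluster on the minus strand, the first between Ttll10 with Gm13648 on one side and Gm52714 on the other, and the second between Phb2 with LOC115490496 and Ptpn6. Besides the passenger strands of the same hairpins, no other microRNA of the array mapped within 100000 bases of either cluster.

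The quantity measured was the total gene signal, the scanner software's sum of background-subtracted intensity over the probes of a microRNA, which may fall below 0. A microRNA is called detected where the signal of at least 1 of its probes exceeds 3 times its own error. The arrays differed in what they could detect. Sham detected 193 of the 567 microRNAs, the Flut+Acy arrays 275 and 270, and Flut+Acy+T 102. Over 672 negative-control spots the signal had a standard deviation of 2.97 units for Sham, of 2.72 and 7.45 for the Flut+Acy pair and of 1326 for Flut+Acy+T, and on that last array 535 of 12493 spots were flagged as nonuniform. The lowest total signal of any detected microRNA on Flut+Acy+T was 238 units, against 2.67 on Sham.

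The 3 members of the chromosome 4 cluster had more signal in the Flut+Acy pair than in Sham, whereas the 2 members of the chromosome 6 cluster were detected on no array. mmu-miR-200a had a total signal of 5.94 ± 2.52 units (software error) for Sham, of 75.1 ± 6.74 and 80.9 ± 7.54 for the Flut+Acy pair and of 43.8 ± 123 for Flut+Acy+T, the array where it was not detected. mmu-miR-200b, which has the other seed, had 9.69 ± 2.63 units for Sham, 116 ± 10.6 and 135 ± 12.4 for the Flut+Acy pair and, not detected, 16.6 ± 123 for Flut+Acy+T. mmu-miR-429 had 7.26 ± 2.52 units for Sham, not detected, 81.9 ± 6.45 and 92.6 ± 7.63 for the Flut+Acy pair, and 376 ± 127 for Flut+Acy+T, again not detected. For each of the 3, the lower Flut+Acy array lay above Sham by many times the error of either, and the Flut+Acy arrays lay close together.

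The chromosome 6 members stayed near 0. mmu-miR-141 had -3.29 ± 2.46 units for Sham, 0.889 ± 2.64 and 1.33 ± 3.88 for the Flut+Acy pair and -80.2 ± 123 for Flut+Acy+T. mmu-miR-200c had -4.35 ± 2.46 units for Sham, -1.02 ± 2.63 and -0.139 ± 3.87 for the Flut+Acy pair and -181 ± 123 for Flut+Acy+T. Neither rose above its error on any array, so for these members no change was measurable, and this does not show that they were absent from the cells. The seed groups were thus each split, with mmu-miR-200a detected and mmu-miR-141 not, and mmu-miR-200b and mmu-miR-429 detected and mmu-miR-200c not.

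**Figure D1:**
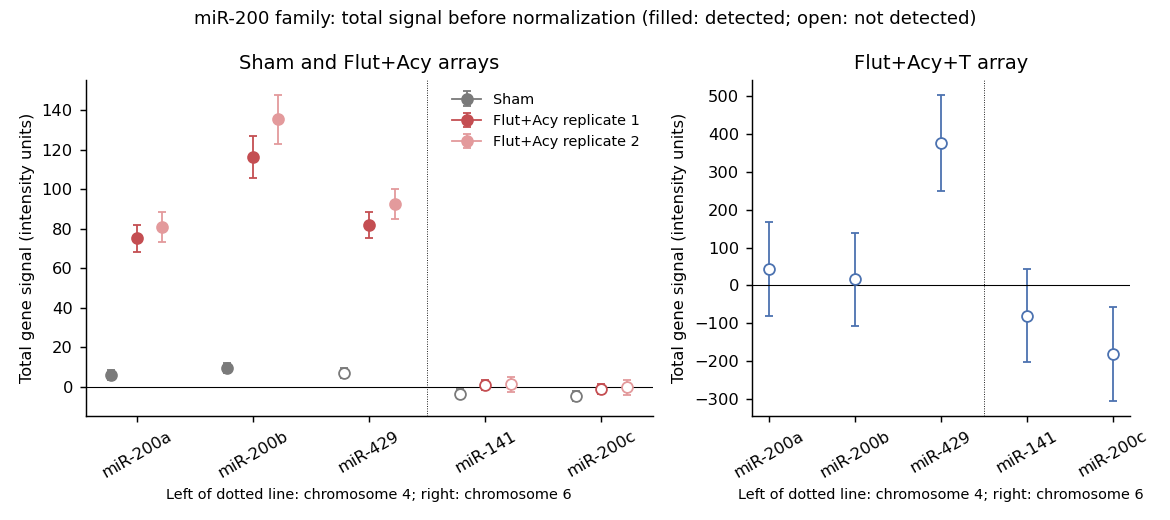
Total gene signal in intensity units, before normalization, of the 5 members on the Sham and Flut+Acy arrays (left) and, on a wider axis, on the Flut+Acy+T array (right); points are single arrays, filled where detected, and bars are the software error. The chromosome 4 members rise from 5.94 to 9.69 units for Sham to 75.1 to 135 for the Flut+Acy pair, while the chromosome 6 members lie at 0 within about their error or below it.

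Each microRNA was read by 2 probes of 10 spots each, which gave a second view of the same arrays. All 20 spots of mmu-miR-200a, mmu-miR-200b and mmu-miR-429 were well above background on both Flut+Acy arrays, and none of the 20 spots of mmu-miR-141 or of mmu-miR-200c was on any array. On Sham, 5 of the 20 spots of mmu-miR-200b and none of those of mmu-miR-200a and mmu-miR-429 reached that mark.

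Both probes of each chromosome 4 member were higher in the Flut+Acy pair. The 18-base probe of mmu-miR-200a averaged 8.39 ± 1.77 units (SD over 10 spots) on Sham and 90.5 ± 12.8 and 91.6 ± 6.26 for the Flut+Acy pair. Its 17-base probe averaged 0.969 ± 1.73 units for Sham and 23.8 ± 3.67 and 28.7 ± 2.76 for the Flut+Acy pair. For mmu-miR-200b the 17-base probe went from 13.8 ± 3.39 units for Sham to 153 ± 15.7 and 171 ± 7.03. The 17-base probe of mmu-miR-200a and the 16-base probe of mmu-miR-200b had 0 spots well above background on Sham and 10 of 10 on each Flut+Acy array.

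The same held for mmu-miR-429. Its 18-base probe averaged 6.05 ± 1.72 units for Sham and 68.3 ± 10.1 and 76.2 ± 5.46 for the Flut+Acy pair, and its 19-base probe 4.92 ± 2.32 units for Sham and 56.2 ± 11.2 and 62.9 ± 3.93 for the Flut+Acy pair. Its Sham signal was split over both probes, at 2.24 and 1.83 times their errors, so that neither passed the mark of 3 errors although 18 of its 20 spots were positive and significant. Its lack of a detection flag on Sham was thus not a signal of 0.

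The longer probes of the chromosome 6 members had slightly higher averages in the Flut+Acy pair, a difference that was not tested. The 17-base probe of mmu-miR-141 averaged -1.73 ± 1.39 units for Sham and 2.92 ± 2.19 and 3.11 ± 3.80 for the Flut+Acy pair, with 4 of 10 spots positive and significant on each Flut+Acy array and none on Sham. Among the probes of undetected microRNAs that have 10 spots, 22.2% on Flut+Acy replicate 1 and 36.5% on replicate 2 had at least 4 such spots, so this is common at background. The 16-base probe of mmu-miR-200c averaged -3.34 ± 0.982 units for Sham and 1.40 ± 2.01 and 1.90 ± 1.93 for the Flut+Acy pair.

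**Figure D2:**
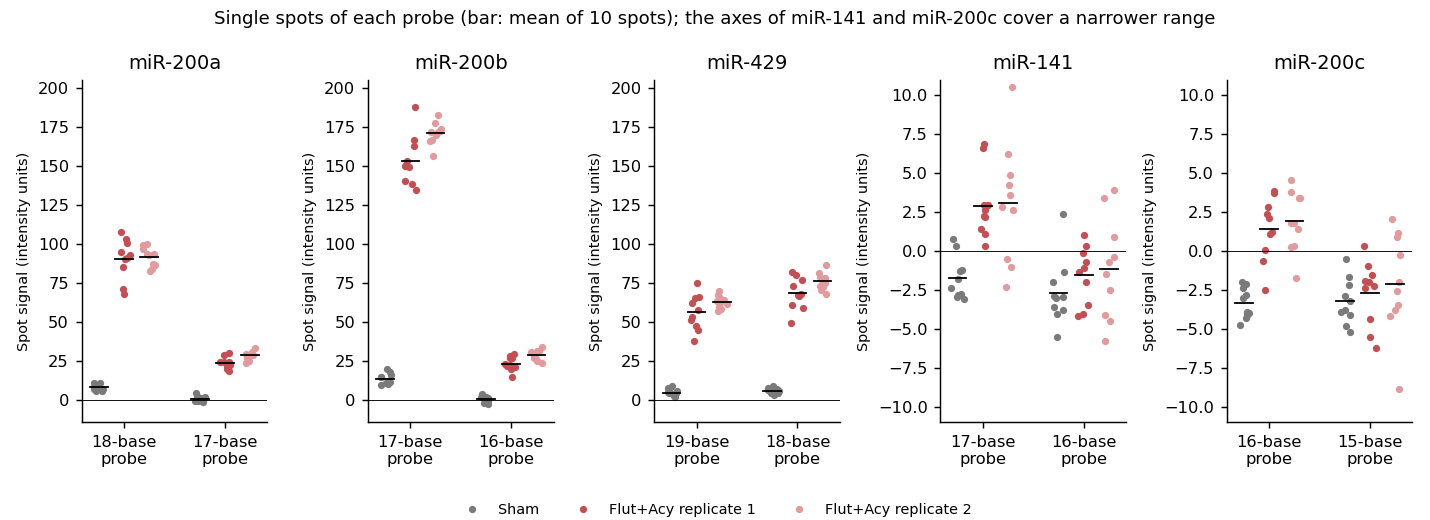
Background-subtracted signal in intensity units of every spot of both probes of each member on the Sham and Flut+Acy arrays, with the mean of 10 spots as a bar; the axes of miR-141 and miR-200c are narrower than the others. For the 3 chromosome 4 members no Flut+Acy spot of a probe overlaps its Sham spots, while spots of the chromosome 6 members scatter around 0 for the Flut+Acy pair.

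Before normalization, the Flut+Acy to Sham ratios of the total signals were 12.7 and 13.6 for mmu-miR-200a, 12.0 and 13.9 for mmu-miR-200b and 11.3 and 12.8 for mmu-miR-429. These ratios can be set against those of the 247 microRNAs that were positive on Sham and detected on both Flut+Acy arrays, which had medians of 3.07 and 3.67 and quartiles of 1.82 and 7.96 on replicate 1 and of 2.28 and 9.01 on replicate 2. The Flut+Acy arrays were thus brighter for most microRNAs. Counted from the largest ratio, the 3 members lay at ranks 46 to 52 of 247, close to each other and above the upper quartile on both arrays.

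Quantile normalization gives every array the same distribution of values and so removes a general difference in brightness. On this scale mmu-miR-200a had 44.9 units for Sham and 104 and 102 for the Flut+Acy pair, a difference of 1.20 on the log2 scale (limma, SE 0.0139, adjusted p = 0.0087). mmu-miR-200b had 72.5 units for Sham and 144 and 151 for the Flut+Acy pair, a log2 difference of 1.02 (SE 0.047, limma adjusted p = 0.0236). mmu-miR-429 had 53.8 units for Sham and 114 and 113 for the Flut+Acy pair, a log2 difference of 1.08 (SE 0.0147, limma adjusted p = 0.0104) or 2.11-fold. It was not detected on Sham, so that fold rests on an undetected signal and is not a lower bound. mmu-miR-141 and mmu-miR-200c were below the floor of 5.46 units on all arrays and were not tested.

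So 3 of the 5 members were called higher at an adjusted p of 0.05 or less, 0 were called lower and 2 were not tested. mmu-miR-429 was tested only because it was detected on the Flut+Acy arrays, where it is high, and under a stricter filter that asks for detection on both Flut+Acy arrays and on another array the count was 2. Over all 298 microRNAs detected on at least 1 array, 25.5% were called higher and 28.5% lower. The median log2 difference was 1.02 over the 5 members, with the undetected ones at the floor, and -0.15 over the 298. A rise of at least 2-fold was seen for these 3 members and for 21.5% of all tested. By size of the difference they ranked 59, 61 and 63 of 298. The spread behind these p-values comes from the Flut+Acy pair alone, with 1 residual degree of freedom, and the single Sham array is assumed to vary as that pair does. The software errors go against that assumption. For mmu-miR-200a the error was 2.52 of 5.94 units on Sham and 6.74 of 75.1 on Flut+Acy replicate 1. The SEs and p-values leave out this larger relative error of Sham and so overstate the precision. The single-factor analysis of variance that the methods name tests the 3 groups together, Flut+Acy+T included, and not Flut+Acy against Sham alone. By that analysis of variance all 3 members had an unadjusted p between 0.00561 and 0.0135. After adjustment 0 of the 3 passed, as of all 243 microRNAs with a p. The Tukey step for Flut+Acy against Sham gave an unadjusted p of 0.0117 for mmu-miR-200a, 0.0523 for mmu-miR-200b and 0.0139 for mmu-miR-429. The adjusted p of the Tukey step was 0.183 for each.

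The normalized differences of the 3 members ranged from 1.02 to 1.20, a gap of 0.17 on the log2 scale that was not tested. In the authors' own normalized table they lay farther apart, at 2.48 for mmu-miR-200a, 2.26 for mmu-miR-200b and 1.62 for mmu-miR-429. In RNA of pooled cells, a larger share of cells that carry a microRNA and more of it in each cell cannot be told apart. Without the Flut+Acy+T array in the normalization, the differences were 1.50 for mmu-miR-200a (limma adjusted p = 0.011), 1.30 for mmu-miR-200b (limma adjusted p = 0.0156) and 1.34 for mmu-miR-429 (limma adjusted p = 0.0131).

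The size of the rise depended on how the arrays were scaled, while its direction did not. Over 12 other settings the differences of these 3 members ran from 0.38 to 3.71, and the median of all microRNAs tested from -0.37 to 1.68. Relative to the median of the same setting, the members were 0.43 to 2.59 higher, and 1.17 to 1.34 higher with quantile normalization. The lowest values came from the normexp correction, which adds 50 units to every spot, and the highest from the arrays left unscaled.

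**Figure D3:**
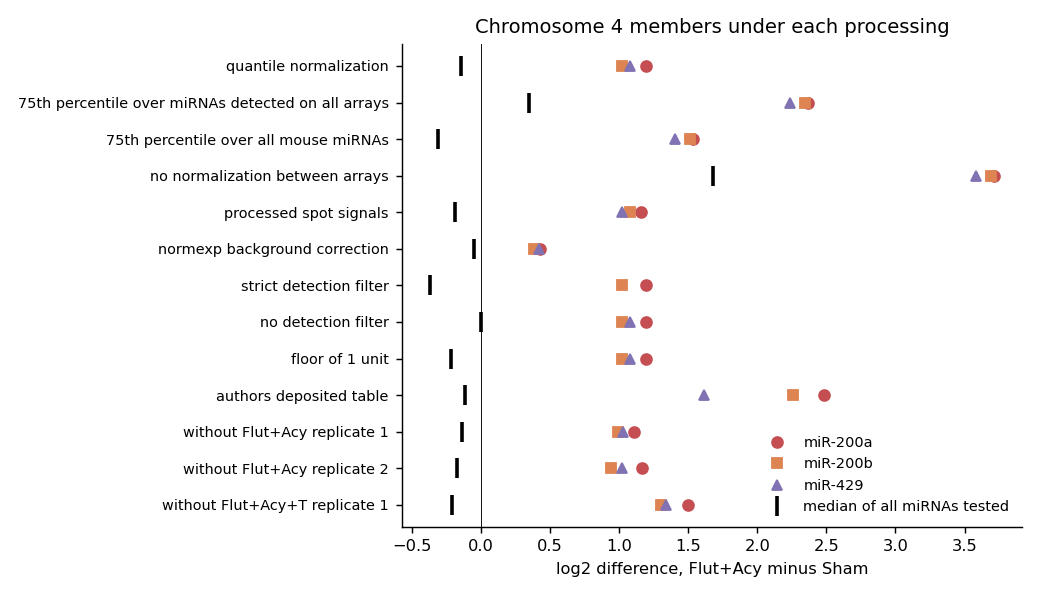
Log2 difference of Flut+Acy minus Sham for mmu-miR-200a (circles), mmu-miR-200b (squares) and mmu-miR-429 (triangles) under each processing, with the median of all microRNAs tested as a black bar. The members lie right of 0 and right of the median in every row, from 0.38 with normexp to 3.71 without normalization; mmu-miR-429 has no point under the strict detection filter, which it does not pass.

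The effect of testosterone on the family could not be read from the Flut+Acy+T array. No member was detected there, and the total signals of the 3 chromosome 4 members on the Flut+Acy arrays, at most 135 units, were below the 238 units of the dimmest detected microRNA on Flut+Acy+T. In the fit, the log2 difference of Flut+Acy+T from Flut+Acy was -2.58 for mmu-miR-200a, -4.15 for mmu-miR-200b and 0.70 for mmu-miR-429 (limma adjusted p = 0.00276, 0.00519 and 0.00762). That is 1 member higher and 2 lower, where 21.5% of the 298 were called higher and 53.7% lower. These differences rest on signals that were not detected. With Flut+Acy+T put at its dimmest detected microRNA as a bound, mmu-miR-200b was 1.42-fold lower there than on Flut+Acy. Such a bound is not a firm limit, because 36 undetected microRNAs had a higher signal than that on Flut+Acy+T, mmu-miR-429 among them. That bound depended on the scaling, from below 1 when arrays were scaled to the 75th percentile of microRNAs detected on all arrays or left unscaled to 6.27 in the authors' table. For mmu-miR-200a the bound was just below 1 with quantile-normalized total signals, at -0.0084 on the log2 scale. It was between 1.01 and 4.24 in 4 other settings. Among these, the spot signals and the normexp correction were quantile-normalized too. The highest bound was again that of the authors' table. For mmu-miR-429 it exceeded 1 in that table alone, at 1.11.

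Against Sham, the fit likewise put 1 member higher (mmu-miR-429, 1.78) and 2 lower (mmu-miR-200a, -1.38, and mmu-miR-200b, -3.13), where 17.4% of all tested were called higher and 48.3% lower. None of these gives a fold, because no bound exceeded 1 for mmu-miR-200a and mmu-miR-200b and mmu-miR-429 was detected on neither array. mmu-miR-429 was the member nearest to detection on Flut+Acy+T. Its 19-base probe reached 2.69 times its error with 10 of 10 spots positive and significant, and its 18-base probe 1.48 times with 7 of 10, but 3 of its 20 spots were flagged as nonuniform.

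Passenger strands, the other arms of the hairpins, were carried by the array for mmu-miR-141*, mmu-miR-200a*, mmu-miR-200b* and mmu-miR-200c*. None of the 4 was detected on any array. mmu-miR-200a* had -1.35 units for Sham and -0.413 and 1.31 for the Flut+Acy pair, and mmu-miR-200b* -1.76 units for Sham and -0.517 and 0.443 for the Flut+Acy pair. The guide strands of both hairpins rose on the same arrays, and their passenger strands stayed at background.

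Of 10 other microRNAs linked to epithelial cells, 6 were detected on both Flut+Acy arrays and 2 on Sham. Of all 567, the Flut+Acy arrays detected 275 and 270, and Sham 193. mmu-miR-203, a microRNA of the differentiating epidermis, had 5.77 units for Sham, not detected, and 154 and 220 for the Flut+Acy pair. After normalization it was 4.72-fold higher (limma adjusted p = 0.0393). mmu-miR-375, found in endocrine and other epithelia, had 3.59 units for Sham, not detected, and 80.5 and 80.4 for the Flut+Acy pair. After normalization it was 3.42-fold higher (limma adjusted p = 0.0329). Both folds rest on undetected Sham signals and are not lower bounds. Beside 25.5% called higher and 28.5% lower of all 298, only mmu-miR-203 and mmu-miR-375 of the 6 tested were called higher, and 0 lower. The study singled out both for follow-up on these arrays, so their calls are not independent evidence.

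The 6 tested had a median log2 difference of 1.81. Of these, mmu-miR-203, mmu-miR-375, mmu-miR-96 and mmu-miR-31 were detected on the Flut+Acy arrays only. They were tested only because of the arrays where they are high. The median and the calls of this list are therefore not independent of the detection filter. mmu-miR-96 had 0.730 units for Sham and 18.1 and 16.3 for the Flut+Acy pair, a normalized log2 difference of 2.36 that missed the threshold (limma adjusted p = 0.0822). mmu-miR-31 had -2.07 units for Sham and 12.9 for both arrays of the Flut+Acy pair, a normalized log2 difference of 1.85 (limma adjusted p = 0.103). mmu-miR-192 and mmu-miR-194, which are abundant in gut epithelium, had normalized differences of 0.08 and -0.44 (limma adjusted p = 0.565 and 0.105). mmu-miR-205, mmu-miR-183, mmu-miR-182 and mmu-miR-215 were detected on no array. The differences of mmu-miR-96 and mmu-miR-31 rest on undetected Sham values at the floor, so their sizes depend on that floor. With Sham put at its dimmest detected microRNA as a bound, mmu-miR-96 was 1.19-fold higher and mmu-miR-31 gave no fold.

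MicroRNAs linked to mesenchymal cells went the other way after normalization. Of 10 on the array, 9 were tested, and 8 of these were called lower and 0 higher, with a median log2 difference of -0.79. Over all 298 tested, 28.5% were called lower and 25.5% higher. mmu-miR-143 had 1227 units for Sham and 1847 and 2185 for the Flut+Acy pair, a normalized difference of -0.68 (limma adjusted p = 0.0457). mmu-miR-214 had 199 units for Sham and 256 and 315 for the Flut+Acy pair, a normalized difference of -1.27 (limma adjusted p = 0.0205). Before normalization both were higher on the Flut+Acy arrays, but by less than most microRNAs, so their fall holds only relative to the rest of the array. The summed signal of the list likewise went from 5133 units for Sham to 8516 and 9424 for the Flut+Acy pair.

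Markers of other cells moved on the same arrays. Of 15 microRNAs listed for germ cells, 13 were tested, and 11 were called higher (25.5% over all tested) and 0 lower (28.5%). Their differences ran from 1.60 to 4.36, with a median of 2.27. mmu-miR-463, which had the 4.36, was not detected on Sham, nor were mmu-miR-34b-3p, mmu-miR-34c* and mmu-miR-471. The differences of these rest on undetected Sham signals. Most of this list is among the microRNAs that the study itself picked from these arrays and describes in Sertoli cells, so this count is no independent evidence of its direction and does not mark germ cells alone. Their summed signal was 659 units for Sham, 13047 and 13936 for the Flut+Acy pair and 5279 for Flut+Acy+T, and mmu-miR-449b and mmu-miR-449c were detected nowhere. The gonadal somatic marker mmu-miR-202-3p had 103 units for Sham, 312 and 339 for the Flut+Acy pair and, not detected, 8.25 for Flut+Acy+T, with a normalized difference of Flut+Acy from Sham of -0.37 (limma adjusted p = 0.0716). Its partner strand mmu-miR-202-5p was detected on the Flut+Acy arrays only, at 21.5 and 27.0 units.

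The muscle and peritubular list had 5 of 5 tested microRNAs called lower, the blood list 3 of 6 and the endothelial list 1 of 2, and none of these lists had 1 called higher, beside the 28.5% of all tested that were called lower. These falls too are relative to the rest of the array, since the summed signal of the muscle and peritubular list before normalization was 1785 units for Sham and 2581 and 3094 for the Flut+Acy pair. The summed signals of the blood list were 241 units for Sham and 404 and 451 for the Flut+Acy pair. Those of the 10 other epithelial microRNAs were 17.7 units for Sham, 336 and 416 for the Flut+Acy pair and 72.7 for Flut+Acy+T, and those of the family itself 15.2, 273 and 310, and 176. The part of germ cell or epithelial cell content in the rise of the family was not tested.

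**Figure D4:**
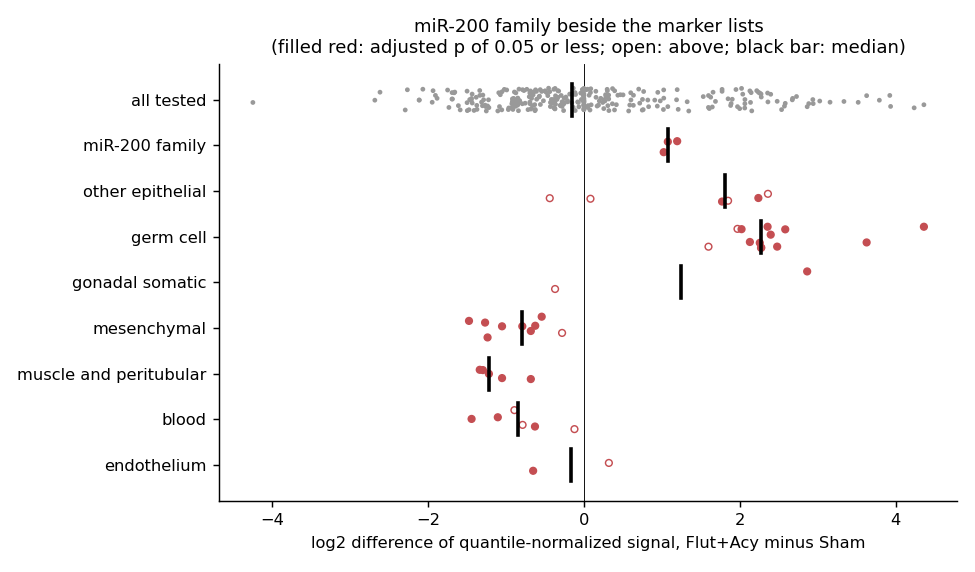
Log2 difference of quantile-normalized signal, Flut+Acy minus Sham, for all 298 microRNAs tested (grey), the tested members of the family and the tested microRNAs of each list (red, filled at an adjusted p of 0.05 or less), with the median as a black bar. The 3 family members sit between 1.02 and 1.20, below the medians of the germ cell (2.27), other epithelial (1.81) and gonadal somatic (1.25) lists. They sit above the medians of the mesenchymal, muscle, blood and endothelial lists. The negative medians of those lists are relative to the rest of the array and not seen in their unnormalized sums.

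The microRNAs with profiles most like those of the members were sought among those detected on the same arrays, by the Euclidean distance between mean-centred log2 profiles over the 4 arrays. For mmu-miR-200a the nearest of 111 were mmu-miR-425 (0.25), mmu-miR-25 (0.34) and mmu-miR-20b (0.38), and for mmu-miR-200b mmu-miR-362-3p (0.29), mmu-miR-467b (0.31) and mmu-miR-128 (0.42). mmu-miR-425 had 10.8 units for Sham and 128 and 149 for the Flut+Acy pair. For mmu-miR-429 the nearest of 66 were mmu-miR-672 (0.93), mmu-miR-290-3p (0.95) and mmu-miR-292-5p (1.08). All of these distances include the Flut+Acy+T array, where none of these microRNAs was detected, so they only describe the profiles. The neighbours of mmu-miR-200a and mmu-miR-200b had Flut+Acy minus Sham differences of 0.57 to 1.21. Those of mmu-miR-429 did not share its 1.08, at 0.27 for mmu-miR-672, -0.08 for mmu-miR-290-3p and 0.07 for mmu-miR-292-5p. The distance was 1.42 between mmu-miR-200a and mmu-miR-200b, and mmu-miR-429 lay 2.81 and 4.22 from them.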

How the data were processed

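The authors deposited the output of the scanner software (Agilent Feature Extraction 9.5.3.1) for each array, with spot and total gene signals as intensity on a linear scale, background-subtracted and not normalized between arrays, and a table of quantile-normalized intensity values. The detection flags were used as deposited. How spots were combined in the authors' table is not stated, so it served as an alternative only. The members and marker lists were chosen with earlier results of these data known.

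Total gene signals of the 567 mouse microRNAs were quantile-normalized on the linear scale, raised to a floor of 5.46 units (each array's dimmest detected microRNA after normalization, median of the arrays) and log2 transformed. The 298 microRNAs detected on at least 1 array were fitted with limma 3.58.1 (R 4.3.3) as 3 groups, with Benjamini-Hochberg adjustment over all 298. The fit was tested on simulated data in which all arrays varied alike and no value was held at a floor. That test does not cover the noisier Flut+Acy+T array or the values at the floor here. Named microRNAs were the members, their passenger strands, the fixed lists and the 3 nearest profiles of each detected member. A bound compares the brighter group's mean log2 value with the dimmer group's, where each array counts at the higher of its lowest detected signal and the microRNA's own. It is not a strict limit, since detection is judged for each probe and undetected microRNAs can exceed the lowest detected signal. Where the microRNA's own signal is the higher, the bound equals the measured fold. The single-factor analysis of variance and its Tukey step (SciPy 1.17.1) were alternatives. The number of arrays limits the precision. Levels of different probes are not compared. Tables were made with pandas 2.3.3 and plots with matplotlib 3.10.9.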

Additional observations from a re-analysis of the deposited data

How the results depend on the processing

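In the comparison of Flut+Acy with Sham, mmu-miR-200a, mmu-miR-200b and mmu-miR-429 were higher under every setting that gave a value, and each passed limma's adjusted p of 0.05 in every setting with a limma test. The median log2 difference of the 5 members moved from 1.02 to 2.23 (75th percentile of microRNAs detected on all arrays), 1.40 (75th percentile of all), 3.58 (no normalization), 0.38 (normexp), 1.62 (the authors' table) and, chosen after seeing the data, 1.30 (without the Flut+Acy+T array), and it was 0.94 to 0.99 without either Flut+Acy array, where no test was possible because no residual degree of freedom remained. The single-factor analysis of variance, which tests the 3 groups together, called 0 members. Its Tukey step, added after seeing the data, called 0 members in each of the 3 comparisons. Of the 6 member comparisons with Flut+Acy+T, 3 changed direction under some setting. Against Sham, mmu-miR-200a turned from -1.38 to 1.01 (75th percentile of microRNAs detected on all arrays), 2.88 (no normalization) and 0.39 (the authors' table), and mmu-miR-200b from -3.13 to 0.77 (no normalization). Against Flut+Acy, mmu-miR-429 turned from 0.70 to -0.16 (the authors' table). For Flut+Acy+T, the median of the members was 0 against Flut+Acy and against Sham, beside -1.08 and -0.47 over all 298. That 0 was set by mmu-miR-141 and mmu-miR-200c, which lay at the floor on all arrays. Against Flut+Acy the median moved to -0.16 (the authors' table). Against Sham it moved to 0.77 (no normalization) and 0.23 (the authors' table), where limma called 1 member instead of 3. The causes were not tested. The authors' table reaches below 0 among detected microRNAs, so a floor of 1 unit was used for it. The order of the members' levels was not compared between settings, since they are read by different probes. No paired analysis was possible because the labels number the Flut+Acy arrays only.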
